A study of Mus musculus with 4 samples.

Results

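The genes described here are Fcrls, Tmem119, Cx3cr1, Slco2b1, Folr2, Selenop, Mrc1 and Ltc4s, 8 of the 31054 features measured, each present once under its symbol. They are used as marks of microglia or of macrophages that reside in tissue, and several were chosen from their low values in treated T11-Apobec macrophages. That contrast is therefore given as a description of how far each gene moved, and it carries no evidence of its own. The genes were read in macrophages, defined as cells with at least 3 unique molecular identifiers (UMIs) of C1qa and at least 1 of Csf1r, and in monocytes, with at most 2 of C1qa, at least 1 of Csf1r and at least 2 of Ly6c2.

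Droplet single-cell RNA sequencing was done on dissociated triple-negative mammary tumours of female mice, after injection of tumour cells into the mammary gland. The treated T11-Apobec group (strain Balbc) and the treated KPB25Luv group (strain FVB/NJ) were given checkpoint therapy biweekly, anti-PD1 (10 mg/kg) together with anti-CTLA4 (100 µg), starting when tumours measured 5 mm across, and were collected after 7 days. The untreated T11-Apobec and untreated KPB25Luv groups received no therapy. Each group was 1 library, so no difference could be set against a spread between replicates, no p-value was computed, and every interval covers counting error only. Tumour line and mouse strain differed together between the models, so their parts cannot be told apart.

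Microglia and other resident macrophages settle in a tissue and persist there, while monocytes arrive from the blood and take on macrophage genes after entry. Fcrls, a scavenger receptor-like relative of the Fc receptors in mice, and Tmem119, a transmembrane protein, are standard marks of brain microglia, and Cx3cr1 is the receptor for the chemokine fractalkine. Slco2b1 carries organic anions across the membrane. Folr2 is folate receptor beta and Mrc1 the mannose receptor CD206, both typical of resident macrophages in many tissues, the mammary gland included. Selenop is the secreted selenium carrier, and Ltc4s makes leukotriene C4.

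After filtering, the treated and untreated T11-Apobec libraries held 582 and 2048 macrophages and 86 and 23 monocytes, and the treated and untreated KPB25Luv libraries 21 and 448 macrophages and 54 and 88 monocytes. The median macrophage had 9650.5 UMIs in treated and 4100.5 in untreated T11-Apobec, and 7604 in treated and 9310 in untreated KPB25Luv. All 12 genes of a macrophage list, among them C1qb, Adgre1 and Cd68, were detected in the macrophages of every library. Any pair of libraries shared between 34 and 125 barcodes. A UMI of the epithelial genes Epcam, Krt8 or Krt18 was found in 2.06% of treated and 1.22% of untreated T11-Apobec macrophages, and in 0% of treated and 92.2% of untreated KPB25Luv macrophages, so the last of these stood apart. A UMI of Cd3d, Cd3e or Cd3g was found in 23.0% of treated and 1.27% of untreated T11-Apobec macrophages, and in 33.3% of treated and 46.7% of untreated KPB25Luv macrophages.

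The name microglia-like was only partly borne out. Sall1, the factor that defines brain microglia, had 0 UMIs in the macrophages of all 4 libraries. There 3 counts would be 0.502 and 0.331 UMIs per 1000000 of the summed class (CPM) in treated and untreated T11-Apobec. In treated and untreated KPB25Luv they would be 19.2 and 0.569 CPM. P2ry12, the purinergic receptor of resting microglia, stood at 15.4 CPM in treated and 33.8 CPM in untreated T11-Apobec and at 6.41 CPM in treated and 17.5 CPM in untreated KPB25Luv. Siglech reached at most 2.21 CPM in any of the 4. These 3 genes were singled out after their values were seen. They belong to a list of 19 microglia genes, Ltc4s among them, most of which were detected. In macrophages 18 of the 19 had a UMI in treated and 17 in untreated T11-Apobec, and 13 in treated and 18 in untreated KPB25Luv. Gpr34, Olfml3 and Cst3 had UMIs in all 4 libraries. The 8 genes are therefore called by their symbols below.

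On GRCm38 (mm10), Fcrls lies at chr3:87250758-87263738, Tmem119 at chr5:113793729-113800516, Cx3cr1 at chr9:119901616-120069879, Slco2b1 at chr7:99657804-99711340, Folr2 at chr7:101839988-101857194 and Ltc4s at chr11:50236461-50238616, all on the minus strand. Selenop lies at chr15:3268547-3280508 and Mrc1 at chr2:14229392-14332057, on the plus strand. The kit reads the 3′ end of transcripts, so counts stand for whole genes and not for isoforms.

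The region before the start of 3 of these genes is shown because Fcrls and Folr2 were found in the same untreated cells but differed in treated ones, and Selenop because it held the letters of 2 searched motifs close together. RefSeq (GRCm38.p6) held such windows, reaching from 250 bases before to 50 after a start, for 7 of the 8 genes. Tmem119 was not matched. Where a gene had several starts, a start with the most motif matches before it was taken, so the matches shown follow in part from that choice. The Selenop start shown lies inside the span of the gene given above. The 250 bases before the start are printed 5′ to 3′ on the gene's strand, for Fcrls at chr3:87263525-87263774 (minus strand), for Folr2 at chr7:101857191-101857440 (minus strand) and for Selenop at chr15:3270517-3270766 (plus strand), with motif matches in capitals.
Fcrls: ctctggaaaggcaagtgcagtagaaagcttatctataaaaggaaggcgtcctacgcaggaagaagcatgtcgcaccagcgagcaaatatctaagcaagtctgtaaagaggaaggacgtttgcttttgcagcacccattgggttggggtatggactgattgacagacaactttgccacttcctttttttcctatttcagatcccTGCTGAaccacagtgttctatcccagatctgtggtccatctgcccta
Folr2: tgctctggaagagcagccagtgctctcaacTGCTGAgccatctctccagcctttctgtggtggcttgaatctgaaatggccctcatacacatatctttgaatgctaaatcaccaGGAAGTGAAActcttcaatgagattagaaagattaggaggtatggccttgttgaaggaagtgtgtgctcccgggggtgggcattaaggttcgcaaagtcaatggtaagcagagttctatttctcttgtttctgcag
Selenop: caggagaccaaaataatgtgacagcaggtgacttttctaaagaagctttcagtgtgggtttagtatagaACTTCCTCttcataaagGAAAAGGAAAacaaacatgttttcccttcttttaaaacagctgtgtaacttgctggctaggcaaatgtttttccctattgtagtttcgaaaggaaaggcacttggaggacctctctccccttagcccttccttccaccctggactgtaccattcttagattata

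Both strands of all 32851 windows were searched for the letters of 6 motifs. The MAF half-site TGCTGA was found 47 bases before the start of Fcrls 220 before the Folr2 start shown and 19 before the other Folr2 start, and in 19.5% of all windows. The ETS-IRF composite, GGAA and GAAA with any 2 bases between them, matched at 136 bases before that Folr2 start and in 2.72% of all windows. The PU.1 site GAGGAAGT lay, on the other strand, 181 bases before the Selenop start shown (3.20% of all windows), and the interferon-stimulated element, GAAA and GAAA with any 2 bases between them, at 164 bases before it (3.44%). Slco2b1 held GAGGAAGT 7 bases after 1 of its 3 starts and the gamma-activated site TTCNNNGAA, found in 8.30% of all windows, 14 bases after another and 133 before the third. The E-box CACGTG, in 7.15% of all windows, had no match in any window of the 7 genes, and no 2 matches overlapped. Folr2 and Selenop have other starts, 2 and 3 in all, and the files do not say which start was used. A match is a string of letters and not evidence of binding.

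Among the 8, Fcrls had the widest gap between treated and untreated T11-Apobec macrophages. It had 39 UMIs, 6.53 CPM (4.64 to 8.92), in treated macrophages, against 3628 UMIs, 401 CPM (388 to 414), in untreated ones. The log2 ratio of treated over untreated was -5.92 (-6.43 to -5.49), 60.6-fold lower. It was low in treated KPB25Luv as well, with 2 UMIs in 21 macrophages, 12.8 CPM (1.55 to 46.3), against 1595 UMIs, 303 CPM (288 to 318), in untreated ones. In T11-Apobec, a Fcrls UMI was seen in 4.12% of treated macrophages (2.66 to 6.07%, Clopper-Pearson), against 54.3% of untreated ones (52.2 to 56.5%), and in KPB25Luv in 4.76% (0.120 to 23.8%) against 54.9% (50.2 to 59.6%). With every cell thinned to 1000 UMIs, which left out 1 treated and 6 untreated macrophages in T11-Apobec and 1 and 7 in KPB25Luv, the shares were 0.516% (0.107 to 1.502%) against 25.3% (23.4 to 27.3%) in T11-Apobec, and 0% (0 to 16.8%) against 27.7% (23.5 to 32.1%) in KPB25Luv. T cells, which should lack the gene, held a Fcrls UMI in 0 of 2647 cells in treated T11-Apobec, where 3 cells would be 0.113%. The share was 0.824% of untreated T11-Apobec, 0.136% of treated KPB25Luv and 1.01% of untreated KPB25Luv T cells. The median T cell had 3489 UMIs in treated and 1627 in untreated T11-Apobec, and 3944 in treated and 2087.5 in untreated KPB25Luv. Cells with UMIs of macrophage or other markers had been left out of the T cells read throughout, which can lower such shares. Before that step a Fcrls UMI was in 0% of treated and 0.743% of untreated T11-Apobec T cells. In KPB25Luv it was then in 0.126% of treated and 4.06% of untreated T cells.

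Tmem119 had 14.7 CPM (11.8 to 18.1) in treated and 129 CPM (122 to 137) in untreated T11-Apobec macrophages, a log2 ratio of -3.12 (-3.46 to -2.82). In KPB25Luv it stood at 32.0 CPM (10.4 to 74.7), from 5 UMIs, in treated and 98.5 CPM (90.2 to 107) in untreated macrophages, and the log2 ratio was -1.48 (-3.25 to -0.39). Treated macrophages were below untreated ones in both models, but only in T11-Apobec did the whole interval lie past 2-fold. Tmem119 was also present in cells that are not macrophages, as given further below.

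Cx3cr1 stayed within 2-fold in T11-Apobec and passed it in KPB25Luv. The difference between the models was not tested. It had 278 CPM (265 to 292) in treated and 522 CPM (507 to 537) in untreated T11-Apobec macrophages, a log2 ratio of -0.91 (-0.99 to -0.83) that fell short of 2-fold. In KPB25Luv it had 12.8 CPM (1.55 to 46.3), all from 1 cell with 2 UMIs, in treated and 272 CPM (259 to 287) in untreated macrophages, a log2 ratio of -4.09 (-7.46 to -2.56). A Cx3cr1 UMI was present in 71.1% of treated and 76.3% of untreated T11-Apobec macrophages. At 1000 UMIs per cell these shares were 23.6% in treated and 39.5% in untreated macrophages, while T cells held 0.736 and 2.14%.

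Slco2b1 had few UMIs. There were 6, or 1.004 CPM (0.369 to 2.19), in treated T11-Apobec macrophages, against 242, or 26.7 CPM (23.5 to 30.3), in untreated ones, a log2 ratio of -4.62 (-6.19 to -3.59). In KPB25Luv there were 0 UMIs in treated macrophages (0 to 23.6 CPM), and 73, or 13.9 CPM (10.9 to 17.4), in untreated ones. A difference was thus not detectable at the depth of 21 cells.

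Folr2 and Mrc1, the resident macrophage receptors, were within 2-fold of their untreated levels in both models, but for Mrc1 in KPB25Luv the interval reached past 2-fold. Folr2 had 101 CPM (92.9 to 109) in treated and 132 CPM (125 to 140) in untreated T11-Apobec macrophages, a log2 ratio of -0.39 (-0.54 to -0.25). In KPB25Luv it had 89.7 CPM (49.03 to 150.5) in treated and 77.2 CPM (69.9 to 85.1) in untreated macrophages, a log2 ratio of 0.26 (-0.67 to 0.98). Mrc1 had 168 CPM (158 to 179) in treated and 217 CPM (208 to 227) in untreated T11-Apobec macrophages, a log2 ratio of -0.37 (-0.48 to -0.26). In KPB25Luv it had 263 CPM (188 to 356) in treated and 133 CPM (124 to 144) in untreated macrophages, a log2 ratio of 0.99 (0.49 to 1.43), just inside 2-fold. That ratio was -0.31 with cells bearing markers of other types left out and 1.51, past 2-fold, with at least 1 C1qa UMI as the macrophage limit. The share of T11-Apobec macrophages with a UMI was 40.2% in treated and 30.2% in untreated ones for Folr2, and 63.9 and 49.9% for Mrc1. At 1000 UMIs per cell it was 9.12% in treated and 10.7% in untreated ones for Folr2, and 12.7 and 16.8% for Mrc1, so the order of the raw shares went against the CPM and is not read.

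Selenop had 585 CPM (565 to 604) in treated and 1719 CPM (1692 to 1746) in untreated T11-Apobec macrophages, a log2 ratio of -1.56 (-1.61 to -1.50). In KPB25Luv it had 577 CPM (464 to 709) in treated and 1137 CPM (1108 to 1166) in untreated macrophages, a log2 ratio of -0.97 (-1.30 to -0.68). Ltc4s had 10.7 CPM (8.25 to 13.7) in treated and 30.1 CPM (26.7 to 33.9) in untreated T11-Apobec macrophages, a log2 ratio of -1.48 (-1.91 to -1.10), which was -0.46 among macrophages with a UMI of the chemokine Cxcl9. In KPB25Luv there was 1 UMI, 6.41 CPM (0.162 to 35.7), in treated macrophages, against 74.0 CPM (66.8 to 81.7) in untreated ones, a log2 ratio of -2.95 (-8.84 to -1.04).

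**Figure D1:**
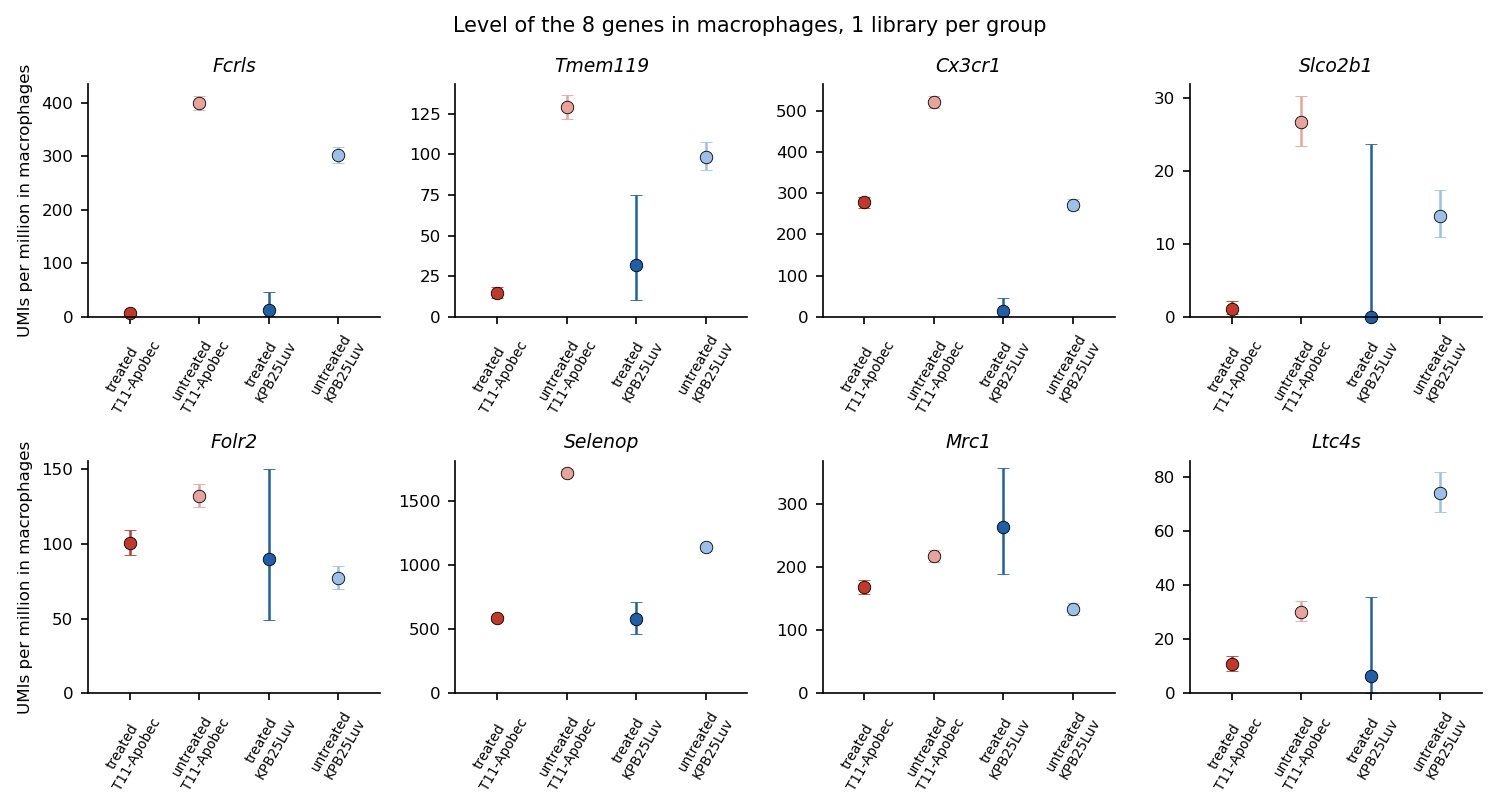
CPM (linear axis) of the 8 genes in macrophages of each library, with exact Poisson 95% intervals for counting error. Fcrls and Slco2b1 lie near 0 in treated T11-Apobec. In the 21 macrophages of treated KPB25Luv, Fcrls is at 12.8 CPM (1.55 to 46.3), from 2 UMIs. Slco2b1 has 0 UMIs there, and its interval, up to 23.6 CPM, covers the untreated 13.9 CPM. Folr2 and Mrc1 keep levels of 89.7 CPM or more in all but untreated KPB25Luv, where Folr2 is at 77.2 CPM.

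Counted by gene, 5 of the 8 were at least 2-fold lower in treated than in untreated T11-Apobec macrophages and 0 at least 2-fold higher, where 7.27% of the 11764 genes with at least 10 UMIs were lower and 5.26% higher. The genes just past that fold were Ltc4s and Selenop, and the nearest one short of it Cx3cr1. In KPB25Luv 4 of the 8 were at least 2-fold lower, Fcrls, Tmem119, Cx3cr1 and Ltc4s, where 11.1% of 11221 genes were, and 0 were higher (14.5%). Selenop and Mrc1 were nearest to the fold from within in that model. The median log2 ratio of the 8 was -1.52 in T11-Apobec, beside -0.09 over all genes. In KPB25Luv it was -1.80, or -1.23 with Slco2b1 at its bound against 3 counts, beside -0.13 over all genes. With macrophages and monocytes pooled, Cx3cr1 passed 2-fold in T11-Apobec as well, at 256 CPM in treated and 519 CPM in untreated cells, giving 6 of 8 lower (7.22% of genes) and 0 higher (5.83%). In KPB25Luv, where this comprised 75 treated and 536 untreated cells, Selenop did so at 291 against 982 CPM, giving 5 of 8 lower (16.4%) and 0 higher (12.6%). The mix of classes differed there, with 54 monocytes among the 75 treated and 88 among the 536 untreated cells. By class, Selenop was at 577 and 1137 CPM in treated and untreated macrophages, and at 148 and 92.6 CPM in monocytes. The part of the mix in the pooled ratios was not tested. In monocytes alone, 54 treated and 88 untreated KPB25Luv cells, 1 of 5 measured was lower (20.8%), Cx3cr1 at 6.43 CPM, from 2 UMIs, in treated and 39.2 CPM in untreated monocytes, and 0 higher (14.4%). That count of 1 was 0 to 2 over 14 alternatives.

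**Figure D2:**
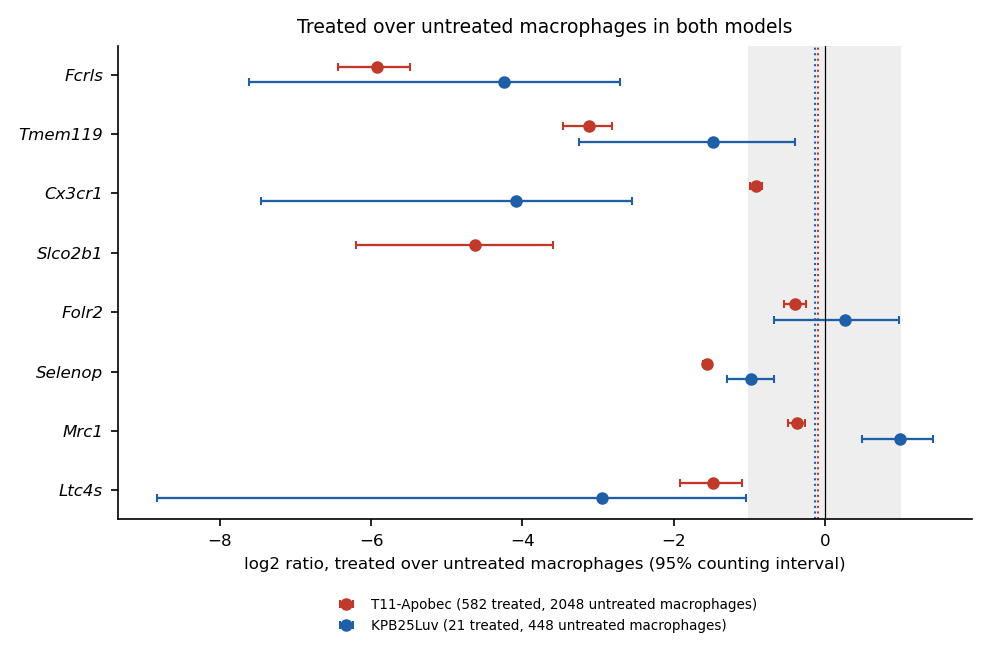
Log2 ratio of treated over untreated macrophages for each gene, with exact conditional 95% intervals for counting error. The grey band marks less than 2-fold, dotted lines the median of all genes, and Slco2b1 in KPB25Luv is left out because treated cells had 0 UMIs. The ratios of Folr2 and Mrc1 lie within the band in both models, with the interval of Mrc1 in KPB25Luv reaching out of it.

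Other genes of the same lists did not all go with the 8. List counts of treated over untreated macrophages stand beside the shares over all genes given above. Those were 7.27% lower and 5.26% higher in T11-Apobec, and 11.1% lower and 14.5% higher in KPB25Luv. Of 16 measured genes of a microglia list without the 8, 7 were at least 2-fold lower and 1, Gpr84, higher in treated T11-Apobec macrophages, with a median log2 ratio of -0.84. Sparc, a matrix protein, stood at 6.86 CPM in treated and 110 CPM in untreated macrophages, and Gpr34, a lysophosphatidylserine receptor of microglia, at 22.6 and 109 CPM. The protease inhibitor Cst3 was at 3028 and 5728 CPM, short of 2-fold. In KPB25Luv 5 of 15 were lower and 3 higher, with a median of -0.81, or -0.76 with genes at 0 UMIs at their bound. Sparc is also made by tumour cells: fibroblast and tumour mesenchymal markers, with Sparc among them, summed to 23.8 CPM in treated and 186 CPM in untreated T11-Apobec macrophages, and their part in these values was not tested.

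The tissue-resident list divided. In T11-Apobec 8 of 21 measured genes were lower and 4 higher, with a median log2 ratio of -0.47. The chemokine Ccl8 was at 4591 CPM in treated and 371 CPM in untreated macrophages, and the scavenger receptor Cd163 at 0.335 and 4.97 CPM. In KPB25Luv 1 of 17 was lower and 7 higher, with a median of 0.67, or 1.44 with genes at 0 UMIs at their bound. There Ccl8 was at 5278 CPM in treated and 244 CPM in untreated macrophages, Pf4, platelet factor 4, at 2825 and 365 CPM, and the chemokine Ccl24 at 448 and 2.85 CPM. Ccl8 was thus higher in treated macrophages of both models, opposite to Fcrls.

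Genes of recruited monocytes were higher more often than lower in treated macrophages. In T11-Apobec 6 of 15 were higher and 1 lower (median log2 ratio 0.50), led by Chil3, a chitinase-like protein, at 17.6 CPM in treated and 0.110 CPM, from 1 UMI, in untreated macrophages (log2 ratio 6.74, 4.80 to 12.63), and F10, coagulation factor X, at 32.0 and 0.663 CPM. The calcium-binding genes S100a4 and S100a6 were at 352 and 389 CPM and at 915 and 774 CPM. In KPB25Luv 8 of 15 were higher and 2 lower (median 1.04), with Plac8 at 621 CPM in treated and 41.7 CPM in untreated macrophages. S100a6 was lower there, at 1345 and 7028 CPM, in the model where epithelial markers summed to 32.0 CPM in treated and 1797 CPM in untreated macrophages. The part of that RNA was not tested.

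Upstream of these genes, the growth factor receptor Csf1r was at 444 CPM in treated and 657 CPM in untreated T11-Apobec macrophages and the lineage factor Spi1 (PU.1) at 392.3 and 388 CPM. Csf1r is also a gate gene, with at least 1 UMI in every macrophage. That UMI adds more CPM in the shallower untreated cells, so the Csf1r difference is not read. Csf1r is 1 of the 21 genes counted next. Of 21 measured signals and regulators, 4 were at least 2-fold lower and 2 higher (median log2 ratio -0.08). The lower ones included the factor Mef2c, at 60.2 CPM in treated and 173 CPM in untreated macrophages, and Nr4a1, an immediate-early nuclear receptor, at 2.18 and 50.9 CPM. In KPB25Luv 1 of 21 was lower and 4 were higher (median 0.09, or 0.26 at the bounds). Nr4a1 is also a dissociation stress gene, and of 17 such genes 7 were lower and 0 higher in treated T11-Apobec macrophages, with Fos at 337 and 1012 CPM. In KPB25Luv 2 of 17 were lower and 0 higher. The part of dissociation in the values of the 8 genes was not tested.

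Genes that share a pathway or family with 1 of the 8 mostly stayed within 2-fold in T11-Apobec. Among partners of the fractalkine receptor, the sheddases Adam10 and Adam17 were at 64.4 and 56.1 CPM and at 64.9 and 58.6 CPM in treated and untreated T11-Apobec macrophages. Cx3cl1, the ligand itself, was the 1 of 3 measured that was counted as lower, at 0.669 and 1.66 CPM. With 3 counts standing at 0.502 and 0.331 CPM in these cells, this rests on few UMIs and is not read. Of 10 measured genes of folate uptake and use 0 passed 2-fold in T11-Apobec, with Mthfd2 at 50.5 CPM in treated and 36.6 CPM in untreated macrophages. Of 15 leukotriene and prostaglandin genes 2 were higher and 0 lower, among them the cyclooxygenase Ptgs2 at 6.36 and 1.88 CPM. Alox5ap, which presents the substrate to 5-lipoxygenase upstream of Ltc4s, was at 497 CPM in treated and 376 CPM in untreated macrophages. Of 11 genes of selenoprotein supply 1 was lower, Gpx3, a secreted glutathione peroxidase, at 7.70 and 27.5 CPM. Among 6 measured relatives of the 8, the transporter Slco3a1 was at 16.9 CPM in treated and 2.76 CPM in untreated macrophages, opposite to Slco2b1, and 3 were higher and 1 lower in all. In KPB25Luv the same lists gave 2 higher and 1 lower of 3, 3 and 2 of 10, 0 and 2 of 14, 1 and 2 of 11, and 1 and 0 of 5, in the order named. Over all genes 14.5% were higher and 11.1% lower in KPB25Luv, and list counts near those shares are not read. Of 12 general macrophage genes 0 were higher and 1 lower in treated T11-Apobec macrophages and 3 higher and 0 lower in KPB25Luv. Of lipid-associated macrophage genes 2 were higher and 2 lower of 12 in T11-Apobec, and 3 higher and 1 lower of 11 in KPB25Luv.

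Genes induced by interferon-gamma had the largest median of the lists described, opposite in sign to that of the 8. In treated macrophages 17 of 17 measured were at least 2-fold higher in T11-Apobec (median log2 ratio 2.42) and 15 of 16 in KPB25Luv (median 3.42). The chemokine Cxcl9 stood at 768 CPM in treated and 78.1 CPM in untreated T11-Apobec macrophages, and at 429 and 3.79 CPM in KPB25Luv. Of T11-Apobec macrophages 69.6% of treated and 9.08% of untreated ones had a Cxcl9 UMI. These are raw shares, in cells with a median of 9650.5 UMIs in treated and 4100.5 in untreated T11-Apobec. Macrophages with and without a Cxcl9 UMI were therefore also read apart, a division added after the data were seen.

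In T11-Apobec macrophages without a Cxcl9 UMI, Fcrls stood at 12.3 CPM in 177 treated and 416 CPM in 1862 untreated cells, and in those with it at 4.22 CPM in 405 treated and 259.5 CPM in 186 untreated cells. Fcrls was thus low in treated T11-Apobec macrophages of either kind. In untreated KPB25Luv it also differed by Cxcl9, at 26.8 CPM in 13 cells with a Cxcl9 UMI and 317 CPM in 435 without, and Folr2 stood there at 7.67 and 80.8 CPM. Tmem119 was at 19.3 CPM in treated and 127 CPM in untreated cells without Cxcl9, and at 12.9 and 145 CPM in cells with it. Selenop was at 525 and 1746 CPM without it, and at 609 and 1471 CPM with it. Mrc1 was at 221 CPM in treated and 223 CPM in untreated cells without a Cxcl9 UMI, and at 146 and 166 CPM in cells with it. Without a Cxcl9 UMI 6 of the 8 were at least 2-fold lower in treated cells, where 5.42% of all genes were, Cx3cr1 being added at 244 CPM in treated and 520 CPM in untreated cells. With a Cxcl9 UMI 4 of the 8 were lower, where 7.46% of genes were.

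Ly6c2, which marks recently arrived monocytes, was seen in 11.9% of treated and 0.342% of untreated T11-Apobec macrophages, and in 38.1% of treated and 19.4% of untreated KPB25Luv macrophages. These are raw shares in cells of unequal depth. At 1000 UMIs per cell they were 2.07% in treated and 0.147% in untreated T11-Apobec macrophages. T cells of these libraries held Ly6c2 at 442 to 1026 CPM, and cells with RNA of T cells were counted above. In untreated KPB25Luv 4 of the 8 genes were at least 2-fold lower in the 87 macrophages with a Ly6c2 UMI than in the 361 without, where 3.3% of all genes were. The cells with it had a median of 12731 UMIs and those without 8816, and the part of depth was not tested. This split was chosen after seeing the data. The 4 were Fcrls, Slco2b1, Selenop and Ltc4s, with Fcrls at 150 and 364 CPM and Selenop at 579 and 1359 CPM, while Cx3cr1 was at 170 and 314 CPM. Fcrls in treated T11-Apobec macrophages was at 13.99 CPM in the 69 cells with a Ly6c2 UMI and at 5.396 CPM in the 513 without. Among macrophages without a Ly6c2 UMI, Fcrls was thus at 5.396 CPM in treated and 402 CPM in untreated T11-Apobec. In untreated T11-Apobec only 7 macrophages had a Ly6c2 UMI, and after thinning to 2000 UMIs 1 did, so no ratio was computed there.

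**Figure D3:**
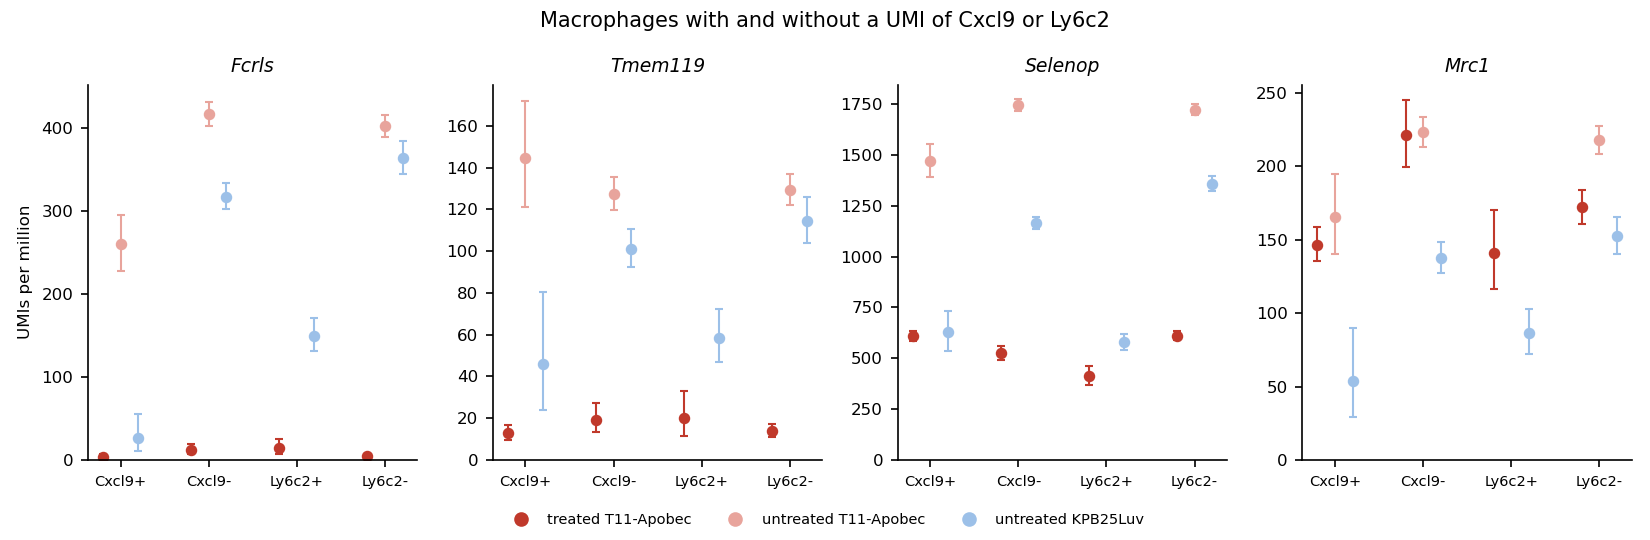
CPM of 4 of the genes in macrophages with and without a UMI of Cxcl9 or Ly6c2, with exact Poisson 95% intervals, in the 3 libraries with at least 50 macrophages; sets under 10 cells are not drawn. Fcrls, Tmem119 and Selenop of treated T11-Apobec lie below those of untreated T11-Apobec in each set drawn for both.

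Macrophages were next compared with monocytes of the same library. The 2 classes are set apart by C1qa and the 8 are marks of macrophages, so higher values in macrophages are partly built in. In untreated KPB25Luv all 8 genes were at least 2-fold higher in macrophages (6.24% of 11436 genes) and 0 lower (5.86%). Fcrls stood at 303 CPM in macrophages and 6.54 CPM in monocytes (log2 ratio 5.42, 4.41 to 6.98), Folr2 at 77.2 and 3.27 CPM (4.34, 3.004 to 6.85), and Selenop at 1137 and 92.6 CPM (3.61, 3.31 to 3.94). Tmem119 had the smallest ratio, at 98.5 and 33.8 CPM (1.52, 1.02 to 2.12). Other macrophage genes went the same way there. Of 12 general macrophage genes 8 were higher and 0 lower. Of 18 tissue-resident genes 12 were higher and 1 lower, and of 17 microglia genes 11 and 1. In untreated T11-Apobec, with 23 monocytes, 6 of 8 were higher in macrophages (3.32%) and 0 lower (20.7%), and monocytes had 0 UMIs of Fcrls, Folr2, Mrc1 and Ltc4s. Neutrophil markers summed to 64.2 CPM in these macrophages and 3991 CPM in the monocytes, and fibroblast and tumour mesenchymal markers to 186 and 560 CPM; the part of that RNA was not tested. Against 3 counts in those monocytes, Fcrls was at least 11.2-fold, Mrc1 at least 6.08-fold and Folr2 at least 3.70-fold higher in macrophages. In treated T11-Apobec 5 of 7 measured genes were higher in macrophages (7.89%) and 0 lower (10.6%), led by Folr2, at 101 CPM in macrophages and 0 UMIs in 86 monocytes, at least 19.4-fold higher. Fcrls had 0 UMIs in those monocytes, which leaves a bound of 1.26-fold. T cell markers summed to 162 CPM in macrophages and 1081 CPM in monocytes of treated T11-Apobec, and to 324 and 1093 CPM in untreated KPB25Luv. The part of T cell RNA in these ratios was not tested.

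Between untreated libraries, 0 of the 8 were at least 2-fold higher in T11-Apobec than in KPB25Luv macrophages (7.44% of 12338 genes) and 1, Ltc4s, was lower (18.3%). Ltc4s stood at 30.1 CPM in T11-Apobec and 74.0 CPM in KPB25Luv, a log2 ratio of -1.29 (-1.52 to -1.07). The other 7 had log2 ratios from 0.39 for Tmem119 to 0.94 for Slco2b1 and Cx3cr1, beside a median of -0.18 over all genes. With cells thinned to 2000 UMIs before the classes were set, the ratio was -0.33 for Fcrls, -0.39 for Folr2, -0.22 for Mrc1, -0.51 for Selenop and -0.17 for Slco2b1. With at least 10 UMIs of C1qa it was -0.17 for Tmem119. No direction between the models is read for these 6, while Cx3cr1 was at 0.24 or more under the 15 alternatives run. Epithelial markers summed to 4.53 CPM in untreated T11-Apobec and 1797 CPM in untreated KPB25Luv macrophages, and their part in these values was not tested. Of the microglia list without the 8, 7 of 16 genes were higher and 0 lower in T11-Apobec, among them Olfml3, a secreted glycoprotein, at 154 and 30.9 CPM.

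Outside macrophages the 8 genes fell into different patterns. Among named classes with at least 50 cells, Fcrls and Folr2 stayed at or below 10.99 CPM. Mrc1 reached 39.8 CPM in treated T11-Apobec monocytes, 22.5 CPM in treated and 16.3 CPM in untreated KPB25Luv monocytes and 21.8 CPM in 94 treated KPB25Luv cells without Ptprc. The last value rests on few UMIs. Before cells with markers of several classes were left out, that class had 4 Mrc1 UMIs, in 2 of 104 cells. Selenop was present in endothelial cells, at 206 CPM in 294 untreated T11-Apobec and 379 CPM in 21 untreated KPB25Luv cells. T cells held Selenop at 60.5 CPM in treated and 38.3 CPM in untreated T11-Apobec, and at 83.8 CPM in treated and 110 CPM in untreated KPB25Luv. The macrophage gene C1qa stood in the same T cells at 21.6 CPM in treated and 43.9 CPM in untreated T11-Apobec, and at 0.362 CPM in treated and 20.2 CPM in untreated KPB25Luv. In macrophages it stood at 7672 CPM in treated and 7640 CPM in untreated T11-Apobec, and at 3670 and 4294 CPM in treated and untreated KPB25Luv. The T cell gates limit C1qa UMIs and not Selenop UMIs, so C1qa is held low in T cells and is no measure of free RNA there. Before cells with markers of several classes were left out, C1qa in T cells stood at 28.1 CPM in treated and 50.2 CPM in untreated T11-Apobec. In treated and untreated KPB25Luv it stood at 0.345 and 39.4 CPM. Selenop then stood at 59.4 and 43.6 CPM in T11-Apobec and at 77.7 and 27.8 CPM in KPB25Luv. How far free RNA gave the Selenop values of T cells was not tested.

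Tmem119 was found in cells without Ptprc, the leukocyte gene CD45, at 31.7 CPM in 536 treated and 66.4 CPM in 4717 untreated T11-Apobec cells. In KPB25Luv epithelial cells it stood at 312 CPM in 35 treated and 38.5 CPM in 1114 untreated cells. Treated T11-Apobec macrophages, at 14.7 CPM, were thus below the cells without Ptprc of their own library. Ltc4s was at 286 CPM in 265 neutrophils of untreated KPB25Luv, above the 74.0 CPM of its macrophages, and was found in 19.8% of 126 neutrophils at 1000 UMIs, against 8.84% of 441 macrophages and 1.14% of 439 T cells. Slco2b1 was at 14.6 CPM in untreated T11-Apobec endothelial cells, beside 26.7 CPM in macrophages.

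**Figure D4:**
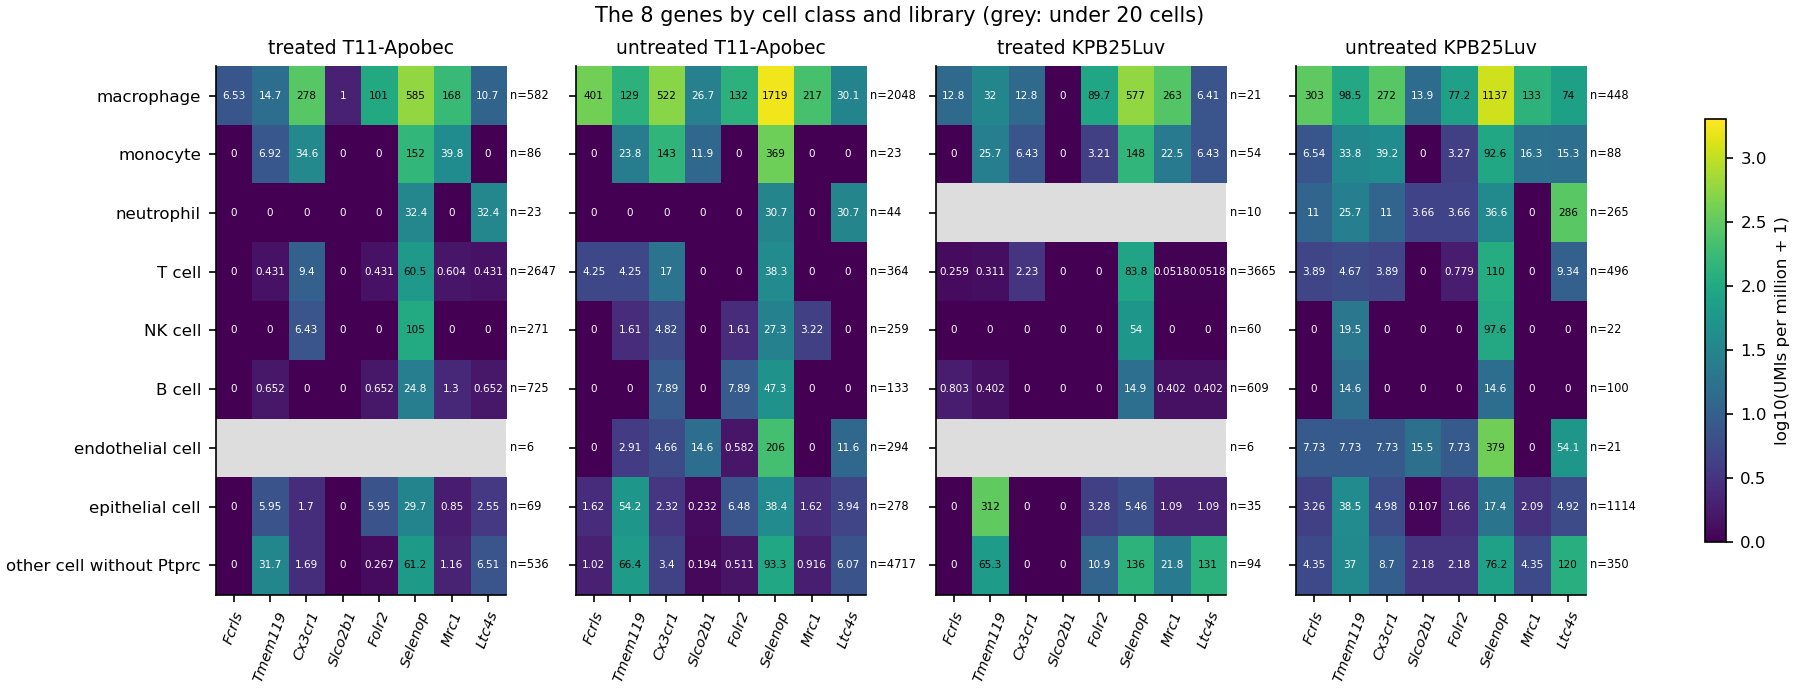
CPM of the 8 genes (colour on a log10 scale after adding 1, value printed) by cell class and library, with cell numbers. Fcrls, Folr2 and Mrc1 are highest in macrophages, while Selenop extends to endothelial and T cells, Tmem119 to cells without Ptprc and Ltc4s to untreated KPB25Luv neutrophils.

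Within macrophages, cells were thinned to 2000 UMIs to read which genes were found together. Treated KPB25Luv was left out for its 21 cells. The mean number of the 8 genes detected per cell was 1.41 in 576 treated and 2.68 in 1975 untreated T11-Apobec macrophages, and 2.35 in 420 untreated KPB25Luv macrophages. None of the 8 was detected in 19.4% of treated and 2.38% of untreated T11-Apobec macrophages, and in 18.8% of untreated KPB25Luv ones.

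Fcrls was found with Folr2 and Mrc1 more than with Tmem119. In untreated T11-Apobec macrophages a Fcrls UMI was present in 63.8% (58.5 to 68.8%) of 356 cells with Folr2 and 35.6% (33.3 to 38.0%) of 1619 cells without, and in 53.5% (49.5 to 57.6%) of 607 cells with Mrc1 and 35.0% (32.5 to 37.6%) of 1368 without. With Tmem119 the shares were 40.3% (35.6 to 45.0%) of 437 cells with and 40.8% (38.4 to 43.3%) of 1538 cells without. In untreated KPB25Luv the shares were 71.2% and 29.4% with and without Folr2, 59.1 and 27.2% with and without Mrc1, and 45.7% (34.6 to 57.1%) and 33.6% (28.6 to 38.9%) with and without Tmem119. Folr2 itself was found in 12.1% of untreated T11-Apobec macrophages with Tmem119 and 19.7% of those without.

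In treated T11-Apobec macrophages Fcrls was at 3 of 86 cells with Folr2, 3.49% (0.725 to 9.86%), and at 3 of 143 cells with Mrc1, 2.10% (0.435 to 6.01%). Cells with Folr2 or Mrc1 but no Fcrls made up 33.3% of treated and 18.1% of untreated macrophages, and cells with both 0.694 and 22.9%. The Folr2-positive macrophages of the treated library thus mostly lacked Fcrls UMIs, while most of those of the untreated one held them. Their summed levels are those given above, and the T11-Apobec contrast is the one that chose Fcrls.

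**Figure D5:**
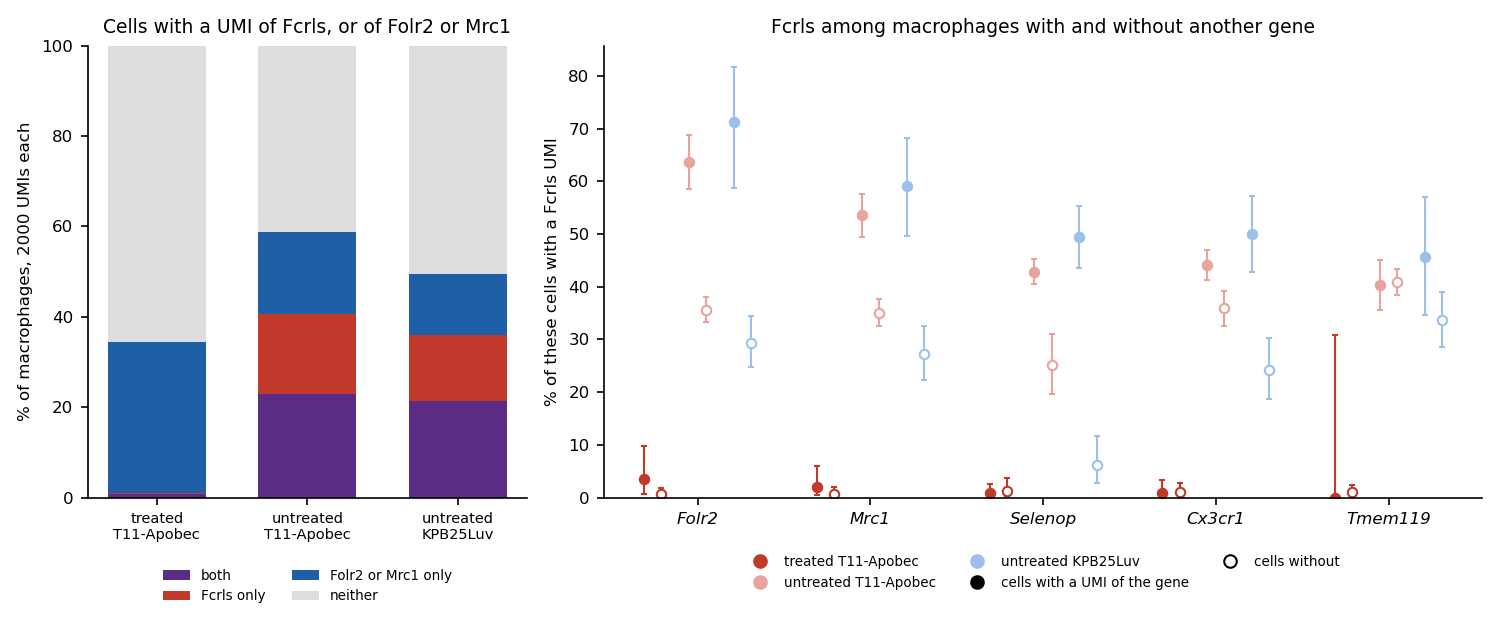
Left, the share of macrophages with a UMI of Fcrls, of Folr2 or Mrc1, of both or of neither, each cell thinned to 2000 UMIs. Right, the share with a Fcrls UMI among macrophages with (filled) and without (open) another gene, with Clopper-Pearson 95% intervals: 63.8% with and 35.6% without Folr2 in untreated T11-Apobec, and 3.49% with Folr2 in treated T11-Apobec.

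The genes whose pattern was most like each of the 8 were ranked by Pearson's correlation of log counts across the 1975 untreated T11-Apobec macrophages, all from 1 library at equal depth, among 3883 genes detected in at least 5% of cells. Selenop had the strongest, with Apoe, apolipoprotein E (r = 0.48), Lyz2, lysozyme (0.40), and Itm2b (0.39), and in 420 untreated KPB25Luv macrophages these were 0.66, 0.57 and 0.65. Folr2 was most like Cbr2, a carbonyl reductase of resident macrophages (0.27), Ctsd, cathepsin D (0.26), and Fcrls (0.23), with 0.36, 0.37 and 0.36 in untreated KPB25Luv. Fcrls was most like Tmsb4x (0.24), Folr2 (0.23) and Lgals1 (0.22), of which Lgals1 was at -0.02 in untreated KPB25Luv. For Mrc1 the nearest were Fcrls, F13a1 and Pf4 (0.17 to 0.20), and for Ltc4s Cbr2, Folr2 and Ctsd (0.12 to 0.16). For Cx3cr1 they were Ms4a6c, Tmsb4x and C1qc (0.14 to 0.16), with 0.24, 0.30 and 0.39 in untreated KPB25Luv. For Tmem119 and Slco2b1 the highest were 0.12 and 0.09, and such weak values in sparse counts are not read further.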

How the data were processed

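Per the file headers, the authors used Cell Ranger 3.0.2 to make the deposited values, raw counts of UMIs per gene and cell barcode; mm10 is named in the submitters' processing notes. The kit was the 10x Genomics 3′ kit, version 2, per the labels' protocols. Treated T11-Apobec held 6504 barcodes with 47131040 UMIs, untreated T11-Apobec 11304 with 98475778, treated KPB25Luv 5509 with 30369476 and untreated KPB25Luv 6773 with 87677328.

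Cells needed at least 200 genes and at most 10% mitochondrial UMIs. Scrublet's own threshold called 2, 359, 0 and 10 doublets, with the libraries as listed, so the highest scores were removed at 0.8% per 1000 barcodes. This left 5812, 9388, 5041 and 6124 cells. Macrophages and monocytes were set by marker UMIs. Cells with at most 2 C1qa and no Csf1r UMI were classed by markers of T, B, NK, endothelial and epithelial cells, neutrophils and plasmacytoid dendritic cells or by lack of Ptprc; because stray UMIs entered the T cell class, cells with markers of several classes were left out, a choice made after seeing the data.

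UMIs were summed per class and divided by the class total (CPM), with exact Poisson 95% intervals. To each count 0.5 was added for log2 ratios, whose intervals were exact and conditional on the sum, for genes with at least 10 UMIs in both groups together and at least 10 cells each. A gene was counted at 2-fold; one with 0 UMIs in a group was counted only if its bound against 3 counts reached that fold. Shares carry Clopper-Pearson intervals. No test was made, since each group was 1 library. The ratio was tested on simulated data.

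The 8 genes and all lists were chosen with earlier results of these data known. Beside the 8, the text names, per list and model, the 2 genes with most UMIs and the 2 with the largest ratio by interval end, and the 3 genes most like each of the 8; of these it gives a selection, and any other gene was picked with its values known. Scrublet was run through scanpy 1.11.5, with Python 3.11.15, pandas 2.3.3, scipy 1.17.1, numpy 2.4.6 and, for figures, matplotlib 3.10.9.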

Additional observations from a re-analysis of the deposited data

Results flagged for a closer look

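Folr2 and Mrc1 stood on opposite sides of 0 in the 2 models when treated macrophages were set against untreated ones. The log2 ratio of Folr2 was -0.39 (-0.54 to -0.25) in T11-Apobec and 0.26 (-0.67 to 0.98) in KPB25Luv, where the interval holds 0. That of Mrc1 was -0.37 (-0.48 to -0.26) in T11-Apobec and 0.99 (0.49 to 1.43) in KPB25Luv. With 1 library per group and 21 treated KPB25Luv macrophages, the difference between the models was not tested.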

How the results depend on the processing

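No paired analysis was possible because each group was 1 library, and no replicate could be left out. Up to 15 alternatives were run per result. The number of the 8 genes at least 2-fold lower in treated macrophages was 4 to 6 in T11-Apobec and 3 to 5 in KPB25Luv. The number at least 2-fold higher in untreated T11-Apobec than untreated KPB25Luv macrophages was 0, but 6 with at least 1 C1qa UMI, 2 with ratios centred on the median of all genes and 7 in macrophages with a Cxcl9 UMI (186 and 13 cells, chosen after seeing the data). Macrophages over monocytes of untreated T11-Apobec gave 6, but 3 with cells thinned to 2000 UMIs before the classes were set. In untreated KPB25Luv they gave 8, but 5 with at least 1 C1qa UMI. In treated T11-Apobec they gave 5, but 3 with cells so thinned. Macrophages and monocytes of KPB25Luv pooled gave 5 lower, but 2 with a Cxcl9 UMI and 8 in cells of 3000 to 10000 UMIs; KPB25Luv monocytes alone gave 1, but 0 to 2 over 14 alternatives. The causes were not tested. Over the alternatives the T11-Apobec log2 ratio ran from -6.28 to -5.05 for Fcrls, from -3.84 to -2.70 for Tmem119, from -1.09 to -0.70 for Cx3cr1 and from -0.61 to 0.18 for Folr2, positive in macrophages with a Cxcl9 UMI. In KPB25Luv Mrc1 ran from -0.31, with cells bearing markers of other types left out, to 1.51, and Selenop from -2.75 to -0.34. The comparison of untreated T11-Apobec macrophages with and without Ly6c2 was not run for want of cells. Values of treated KPB25Luv macrophages rest on 21 cells.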
